A study of Delphinium anthriscifolium with 89 samples.

Results

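The stamens of *Delphinium anthriscifolium*, a larkspur of the buttercup family, carried a group of transcripts that was abundant in the youngest stamens sampled and much lower in all other organs. The group holds 200 of the 32115 assembled transcripts (features) counted in the series. A feature was admitted when its highest wild-type group was stamens at floral stage S9, when that group value reached at least 11, and when it was at least 4-fold above the value of every other organ. A group value is the median over replicates of CPM (counts scaled to a common library total) plus 1, and an organ's value is that of its highest stage. Of 17892 features that reached a group value of 11 anywhere, 1643 were highest in S9 stamens and 377 of these passed the fold requirement. The 200 with the largest ratio to the next organ were kept and are called the members. The members were thus chosen by their measured S9 stamen level and its ratio to other organs, and these values are a description with no test.

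The 89 RNA sequencing libraries include 85 from wild-type plants (genotype label WT) in 30 groups. Stamens, carpels, 2 petal types (dorsal spurred, lateral non-spurred) and 3 sepal types (dorsal spurred, lateral non-spurred, ventral non-spurred) were sampled at S9 with 2 libraries a group and at S10, S12 and S16 with 3 libraries a group, and leaves and bracts had 4 libraries each. The other 4 libraries come from a virus-induced gene silencing experiment sampled at floral stage 12, per the design text, 2 titled ans-lmi1 (genotype labels LMI1 knockdown and LMI2 knockdown) and 2 titled ans, for which the column headers say MOCK. Their tissue label is lateral non-spurred sepals, whereas the series' design text speaks of petals. The sources used here do not say whether a library pools plants or how an S stage relates to the events inside the anther.

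A stamen is a filament that bears an anther, the organ in which pollen forms. Inside a young anther, sporogenous cells enter meiosis while the surrounding tapetum, a secretory cell layer, supplies enzymes, lipids and wall material to the developing microspores. In *Arabidopsis* and rice many anther genes are active in only a short window, and the tapetum breaks down before the pollen matures. The files give no gene names. Members are therefore named by ID, their roles are not given, and the stamen label could not be checked against known anther markers.

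Library totals ran from 4201867 to 22100119 estimated counts (median 8555603), and from 5126956 to 11259808 among the 11 stamen libraries. A count of 3 in a library corresponded to 0.136 to 0.714 CPM. Fewer than 19000 features had a count in 21 libraries, among them both S9 stamen libraries (14972 and 18784 features), replicate 1 of S10 (14943) and replicate 3 of S16 (11345). The other 7 stamen libraries had between 20747 and 23189 features. The labels do not tell whether replicates are separate plants, and p-values then reflect only library-to-library spread, part of which may be technical. Floors of 3 counts account for counting error alone.

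The members took a large share of the young stamen libraries and almost none of the older ones. They held 12.7% and 11.3% of all counts in the 2 S9 stamen libraries. At S10 they held 4.21%, 3.90% and 4.18%. At S12 the shares were 0.138%, 0.142% and 0.421%, and at S16 they were 0.0499%, 0.0547% and 0.0927%. The S9, S10, S12 and S16 libraries did not overlap in this share, and replicate 3 was the highest of its stage at S12 and at S16. In the 74 wild-type libraries of other organs the share ran from 0.0221% to 0.746% with a median of 0.0502%, so the S16 stamen libraries lay inside that range. The tissues were bulk samples, in which fewer cells of a type and less RNA per cell cannot be told apart.

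**Figure D1:**
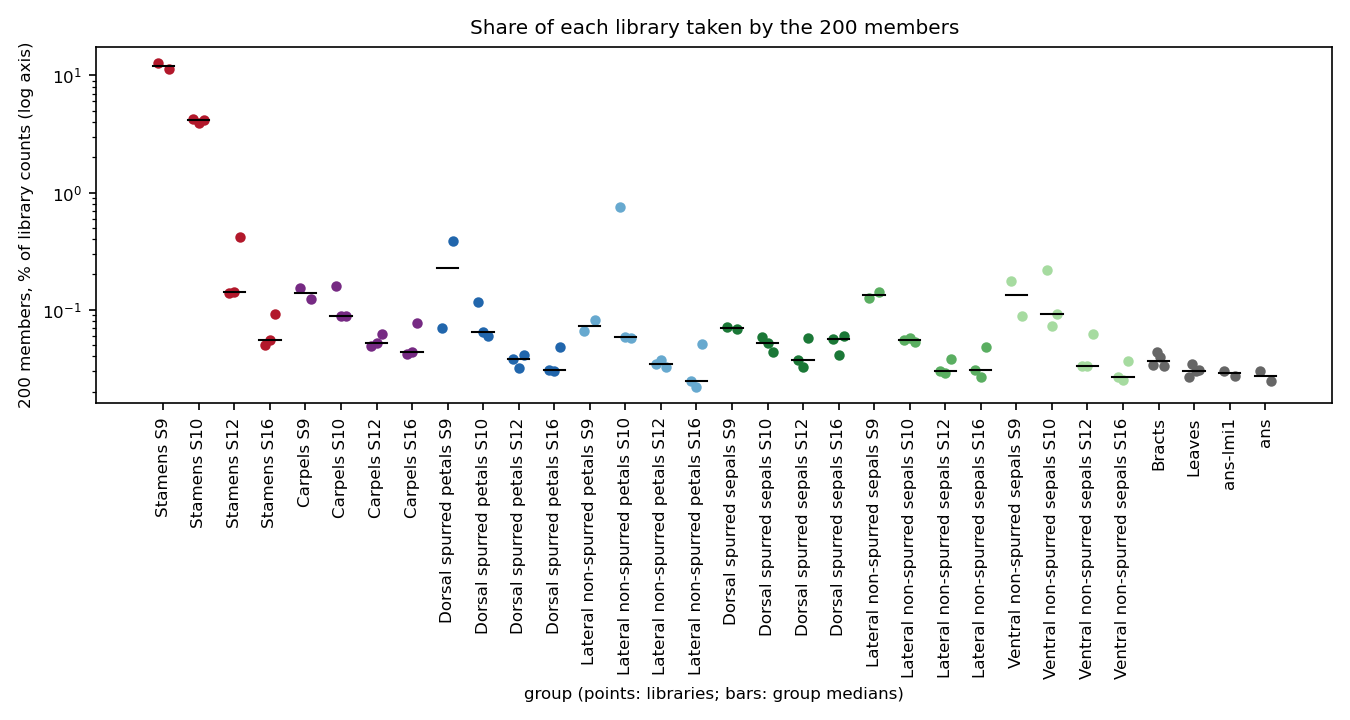
Percentage of each library's counts taken by the 200 members (log axis), by group along the horizontal axis, with points for libraries and bars for group medians. The S9 stamen libraries sit at 12.7% and 11.3%, the S10 stamen libraries near 4%, and libraries of all other organs at or under 0.746%.

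Levels at S9 covered more than 3 orders of magnitude. The median S9 level of a member was 195 CPM, with quartiles of 77.0 and 584 CPM and extremes of 10.6 and 19772 CPM. There were 26 members at 1000 CPM or more, 117 between 100 and 1000 CPM and 57 below 100 CPM. The most abundant member supplied 16.5% of the summed S9 level and the 10 most abundant supplied 44.9%. CPM is not divided by transcript length, so these figures compare numbers of reads and not of transcripts.

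DN46291_c1_g1_i4|m.81075 was the most abundant member, with 20774 and 18770 CPM in the S9 stamen libraries. It still had 13333, 12851 and 12926 CPM at S10, then 2.85, 28.5 and 528 CPM at S12, and 1.11, 1.12 and 0 CPM at S16. DN45212_c0_g1_i2|m.65159, the second in abundance, had 8976 and 8595 CPM at S9 and 6311, 7018 and 7702 CPM at S10. Its S12 libraries had 5.85, 25.5 and 630 CPM, and its S16 libraries had no count. At S10 the medians were 65.4% and 79.9% of those at S9, while the S12 libraries were far lower and spread widely, with replicate 3 on top.

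The largest ratios to the next organ belonged to a pair of features of the same assembly gene. DN47408_c2_g1_i2|m.99426 had 498 and 768 CPM at S9 and 48.2, 40.1 and 115 CPM at S10, and its ratio to the next organ was 268. DN47408_c2_g1_i1|m.99424 had 970 and 1311 CPM at S9 and 134, 63.3 and 192 CPM at S10, with a ratio of 225. Neither had a count in any S12 or S16 stamen library. Over the members the ratio had a median of 33.0, and 24 members exceeded 100.

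The pair of S9 stamen libraries ranked the members alike. Log2(CPM + 1) values correlated with Pearson's r of 0.891 over the 200 members, a description across features of the same libraries. Each replicate was the higher one for 100 members, 149 members lay within 2-fold between the replicates, and 7 were over 4-fold higher in replicate 2 while none was so in replicate 1. The rule was also applied with a single S9 stamen library and read out in the one left aside. The values of the other organs and of the later stamen stages came from the same libraries in both steps. Only the S9 stamen level was thus read anew, and low levels in other organs were not checked. Of 200 features chosen with replicate 1, 196 were at least 4-fold above every other organ in replicate 2 and 174 passed the whole rule there, as did 420 of all features (1.31%). Of 200 chosen with replicate 2, 188 were at least 4-fold above every other organ in replicate 1 and 173 passed the whole rule, as did 377 of all features (1.17%). The chosen features already met the conditions on other organs and later stages, which all features did not. The 1.31% and 1.17% are therefore no baseline for how well the S9 replicates agreed. The lowest ratio in the library left aside was 0.877 with replicate 1 as the choosing library and 0.569 with replicate 2.

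At the limit of the list, rank 199 was DN48856_c2_g4_i4|m.125510 with a ratio of 11.6 and rank 200 was DN47371_c3_g5_i1|m.97116 with a ratio of 11.4. The first features left out, DN39475_c0_g3_i2|m.24656 and DN41618_c0_g1_i2|m.32550, both had a ratio of 11.2. DN47371_c3_g5_i1|m.97116 rests on unequal replicates, with 189 CPM in replicate 1 and 2815 CPM in replicate 2 of S9. It was also detected in all 74 libraries of other organs.

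The share of the S9 level that remained at later stages differed widely between members. At S10 the median member stood at 11.9% of its S9 level, with a range of 0.377% to 99.8%. There were 28 members at 50% or more of S9, 21 at 25 to 50%, 67 at 10 to 25%, 82 at 1 to 10% and 2 below 1%. By S12 the median member stood at 0.0705% of its S9 level, 48 members had no count in any S12 library and 27 reached 10 CPM. By S16 the median was 0, 82 members had no count in any library and 12 reached 10 CPM. The S9 libraries lay above all S10 libraries for 168 members (84.0%, against 12.2% of all features tested), above all S12 libraries for 200 (against 19.9%) and above all S16 libraries for 198 (against 28.2%), counts that the choice of members fixes in large part.

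**Figure D2:**
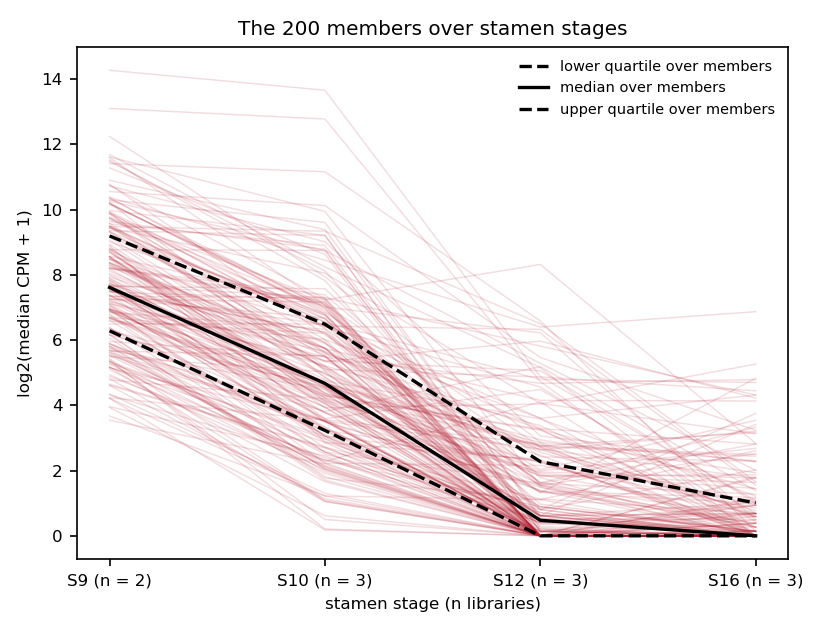
Median level of each of the 200 members, log2(median CPM + 1), at the 4 stamen stages (thin lines), with the median over members (solid black) and the quartiles (dashed black). Most lines drop between S10 and S12, and a few stay well above 0 at S12 or S16.

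The order S9, S10, S12, S16 held for the medians of 156 members. The S12 median exceeded the S10 median in 6 members, and the S16 median exceeded the S12 median in 39. The abundance of a member at S9 went with little difference in the share kept at S10, which had a median of 11.4% for members at 1000 CPM or more, 12.1% for those between 100 and 1000 CPM and 11.5% for those below 100 CPM. Of the 28 members that kept 50% or more at S10, the median share of S9 was 73.2% at S10 and 0.0195% at S12.

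A few members departed from this course and were chosen for mention after their values were seen. DN48012_c1_g1_i5|m.110021 had 744 and 992 CPM at S9, 34.99, 187 and 149 CPM at S10 and 425, 251 and 318 CPM at S12, then 6.13, 4.08 and 11.3 CPM at S16. All its S12 libraries were above its S10 libraries. DN48643_c4_g1_i10|m.120448 had 55.0 and 50.6 CPM at S9, 14.9, 13.1 and 13.0 CPM at S10, 40.4, 31.2 and 35.4 CPM at S12 and 1.61, 1.63 and 0 CPM at S16. Its S12 median was 67.03% of its S9 median, the highest share at S12 of any member. These were 2 of the 4 members that kept 25% or more of the S9 level at S12.

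Whether S12 stamens differed from S10 stamens is a comparison that the rule does not set, since it places S9 above both without ordering them. Many members fell steeply across this step. In edgeR's quasi-likelihood fit of the 11 stamen libraries, 95 of the 200 members were called lower at S12 (47.5%, adjusted p under 0.05), against 1.29% of the 20420 features tested, and 0 were called higher, against 0.426% of all. The members made up 36.1% of the 263 features called lower. Their median log2 fold change, S12 over S10, was -5.80, or -5.00 when the 48 members with no count at S12 were set at a floor of 3 counts over the group, beside 0.06 over all features. The S12 libraries lay below all S10 libraries for 142 members, against 12.1% of all features. All 200 members passed the filter on low counts, which the S9 libraries alone can satisfy. With only the S10 and S12 libraries in the fit 166 members were tested, of which 93 were called lower. Over all 18327 features tested there, 433 were called lower.

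DN47158_c5_g2_i3|m.94510 had no count in the S12 stamen libraries and 255, 439 and 656 CPM at S10. It was at least 4209-fold lower at S12 when S10 counts were pooled (edgeR adjusted p = 0.00011). DN44827_c0_g3_i1|m.59481 also had no count at S12, against 92.5, 232 and 157 CPM at S10. On pooled S10 counts it was at least 1538-fold lower (edgeR adjusted p = 0.001425). Both were the members with the lowest log2 fold changes among those called, and both were called lower under all 13 alternative fits. The groups did not overlap in either member.

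The 2 most abundant members did not pass this test. DN46291_c1_g1_i4|m.81075 had a log2 fold change of -6.12 ± 1.56 (SE; edgeR adjusted p = 0.088092) and DN45212_c0_g1_i2|m.65159 one of -4.98 ± 1.46 (SE; edgeR adjusted p = 0.169104). Their 528 and 630 CPM in replicate 3 of S12 stood beside at most 28.5 CPM in the other S12 libraries. That library held 4214 CPM of members in all, against 1376 and 1419 CPM in replicates 1 and 2. It also held 8.30% of its counts in the 200 stamen features that peak at S10, against 1.30% and 2.18%. The part of that library in the result was not tested beyond leaving it out, which gave 77 members called lower, both of these among them. Leaving out replicate 1 or replicate 2 of S12 gave 61 each, the lowest numbers among the 6 fits that omit a library. Over all features 219 were called lower without replicate 3 of S12, 120 without replicate 1 and 115 without replicate 2, against 263 in the main fit. Without the stamen libraries that had fewer than 19000 features, 147 of 197 members were called lower and 1 higher. Over all 20459 features of that fit, 1393 were called lower and 1571 higher. With DESeq2, 142 members were called lower, against 942 of 20420 features.

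Calls at this step went with the level of a member. There were 18 calls among the 26 members at 1000 CPM or more at S9, 62 among the 117 between 100 and 1000 CPM and 15 among the 57 below 100 CPM. Members called lower had a median S10 level of 52.8 CPM and the others one of 10.7 CPM. An unadjusted p under 0.05 was reached by 171 members and by 2292 of the 20420 features tested.

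**Figure D3:**
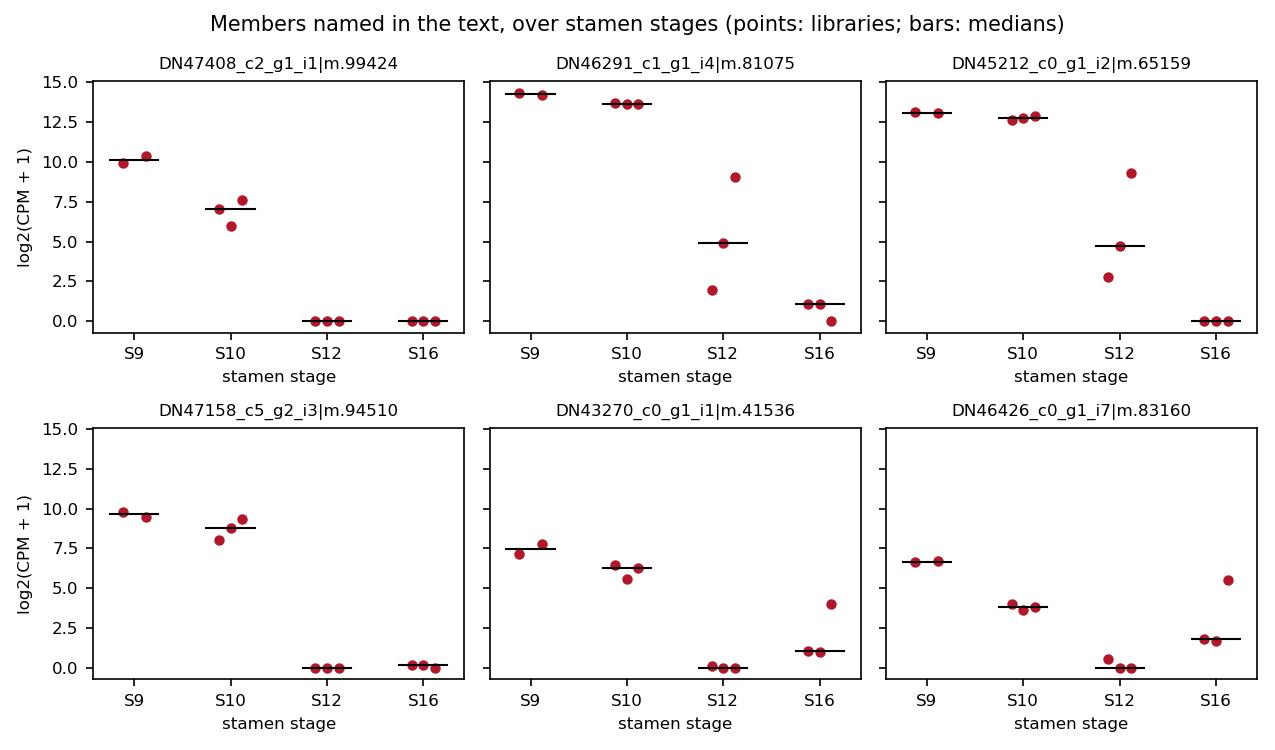
Levels of 6 named members, log2(CPM + 1), in the stamen libraries of each stage, with points for libraries and bars for medians. DN46291_c1_g1_i4|m.81075 and DN45212_c0_g1_i2|m.65159 are at 65.4% and 79.9% of their S9 level at S10 and have 1 high S12 library each, while DN43270_c0_g1_i1|m.41536 and DN46426_c0_g1_i7|m.83160 are low at S12 and higher at S16.

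From S12 to S16 the remaining signal was small and the members split. In the same edgeR fit 33 members were called lower at S16 (16.5%, against 4.61% of all features tested) and 8 were called higher (4%, against 3.12% of all). The median log2 fold change of the members, S16 over S12, was -0.94, or -0.03 with groups without counts at the floor, beside -0.27 over all features. There were 36 members with no count at either stage, whose fitted change is 0. The filter on low counts passed all 200 members in the fit that includes S9 and S10. With only the S12 and S16 libraries in the fit 76 members were tested, of which 13 were called lower and 1 higher. Over all 18312 features tested there, 935 were called lower and 1042 higher. Without the stamen libraries that had fewer than 19000 features, 39 of 197 members and 3810 of 20459 features were called lower. In that fit the share of members called lower was thus near that of all features. The S16 libraries lay below all S12 libraries for 57 members (28.5%, against 33.2% of all features) and above them for 11 (5.5%, against 12.2%). The 200 include 48 members with no count at S12 and thus no level to fall from. The 28.5% therefore does not show that members fell less often than other features.

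**Figure D4:**
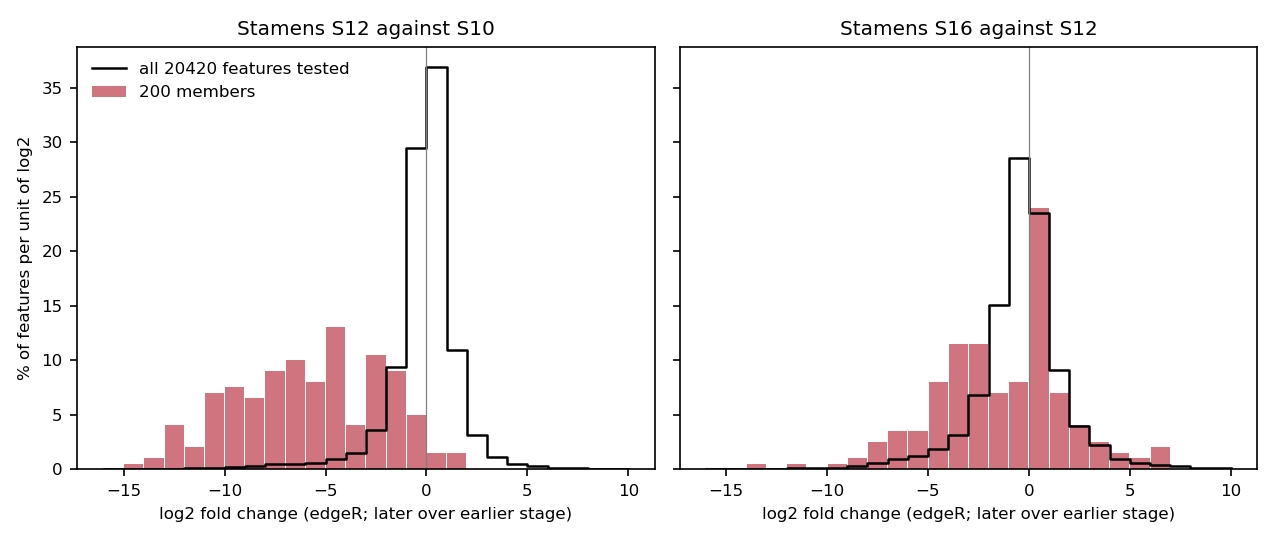
Distribution of log2 fold changes in stamens for the 200 members (red bars) and all 20420 features tested (black line), later over earlier stage, in percent of features per unit of log2. At S12 against S10 the members lie mostly below 0 (median -5.80), and at S16 against S12 they spread to both sides, with a peak just above 0 that holds the 36 members without a count at either stage.

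Among the members called lower at S16, DN45212_c0_g1_i2|m.65159 and DN45520_c4_g1_i3|m.70312 had the lowest log2 fold changes. DN45520_c4_g1_i3|m.70312 had no count at S16, against 11.9, 34.6 and 87.3 CPM at S12. It was at least 317-fold lower when S12 counts were pooled (edgeR adjusted p = 0.008739). DN45212_c0_g1_i2|m.65159, with the values given above, was at least 1375-fold lower when S12 counts were pooled (edgeR adjusted p = 0.009784). Most of those counts came from replicate 3 of S12, with 630 CPM against 5.85 and 25.5 CPM in the others. The bound therefore does not hold for replicates 1 and 2 of S12. The call of DN45212_c0_g1_i2|m.65159 was lost with only the compared groups in the fit and without the libraries under 19000 features. DESeq2 gave neither member a p.

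Among the 8 members called higher at S16, DN43270_c0_g1_i1|m.41536 and DN46426_c0_g1_i7|m.83160 had the highest log2 fold changes. DN43270_c0_g1_i1|m.41536 had 1.11, 1.02 and 14.8 CPM at S16, against 0.0888, 0 and 0 CPM at S12, a log2 fold change of 6.79 ± 1.31 (SE; edgeR adjusted p = 0.009434). DN46426_c0_g1_i7|m.83160 had 2.51, 2.25 and 44.1 CPM at S16, against 0.444, 0 and 0 CPM at S12, a log2 fold change of 6.54 ± 1.44 (SE; edgeR adjusted p = 0.017876). In both, all S16 libraries were above the S12 libraries and replicate 3, the S16 library with 11345 features, was the highest. The first call was lost without replicate 2 of S12, and the second without replicate 2 or 3 of S12, with the replicate block and with only the compared groups. DESeq2 gave the second no p. At S9 the first had 142 and 220 CPM and the second 97.9 and 104 CPM, above all their S16 libraries. Across the 8 members called higher, the S16 median was between 0.203% and 29.1% of the S9 median.

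The numbers of calls, among members and among all features, depended on single libraries. The number of members called lower at S16 was 19 without replicate 3 of S12, 18 without replicate 1 of S16 and 17 without replicate 2 of S16. Over all features these fits called 494, 483 and 444 lower, against 941 in the main fit. The number of members called higher was between 2 and 5 when replicate 1, 2 or 3 of S12 or replicate 1 or 2 of S16 was left out, and 10 without replicate 3 of S16. Over all features it was between 210 and 360 in the former fits and 991 in the last, against 637 in the main fit. The members' median log2 fold change also moved. It was -0.33 without replicate 1 of S12, -0.13 without replicate 2 and -0.62 without replicate 3, beside -0.25, -0.25 and -0.24 over all features. It was -1.425 without replicate 1 of S16, beside -0.47, and -0.53 without replicate 3 of S16, beside -0.02.

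The 200 members came from 183 assembly genes, as the IDs name them, of which 12 held more than 1 member and none more than 3. Where features of an assembly gene share reads, an estimating counter divides the reads among them, and each feature's own level is then uncertain. This applies to 30.5% of the members, beside 29.3% of all features. When counts were summed over each assembly gene, 178 of the 183 genes still passed the rule. These genes held 52 further features, of which 18 were also highest in S9 stamens and 3 in another stamen group. In a count that overlaps with these, 33 did not reach a group value of 11 anywhere.

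On the wider level of assembly components, the clusters of related sequence that the first part of an ID names, 39 members fell into 14 components with more than 1 member. Component DN48856_c2 contributed all 7 of its features, from 3 assembly genes. Their S9 levels ran from 10.7 to 1713 CPM and summed to 3820 CPM, while their medians summed to 342 CPM at S10 and 0.746 CPM at S12. All 4 features of component DN47158_c5 were members, with S9 levels of 19.0 to 797 CPM. Members of a component often kept unlike shares of their S9 level. The S10 share of S9 lay within 2-fold in 6 of the 14 components and spread over more than 4-fold in 6.

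Outside the stamen most members were at low levels, though in their next highest organ most were above the counting floor. The next highest organ was a sepal type for 86 members, carpels for 61, a petal type for 44, bracts for 3 and leaves for 1. For 5 members every other group had a median of 0. The level in the next group had a median of 3.73 CPM and a maximum of 863 CPM, was under 1 CPM for 37 members and reached 10 CPM for 53. That group was sampled at S9 for 153 members. The median member had a count in 30 of the 74 libraries of other organs, and every member had one in at least 1.

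Summed over members, the other floral organs were highest at S9, far under the stamens. Their libraries had a median member sum of 1057 CPM at S9, 623 CPM at S10, 373 CPM at S12 and 388 CPM at S16. Bracts had 330 to 433 CPM and leaves 265 to 347 CPM. Carpels at S9 had 1545 and 1232 CPM and carpels at S10 between 879 and 1582 CPM, overlapping with sepals, which had 684 to 1766 CPM at S9 and 432 to 2191 CPM at S10.

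A handful of libraries stood apart. Replicate 1 of lateral petals at S10 held 7459 CPM of members, against 575 and 581 CPM in the other 2 replicates, and was the highest library outside the stamen for 44 members. For the 146 members at 10 CPM or more in S10 stamens, its level had a median of 12.7% of the S10 stamen level, with quartiles of 3.68% and 23.6%. Log2(CPM + 1) values in this library and in S10 stamens correlated with Pearson's r of 0.774 over those 146 members, a description across features. It also held 4986 CPM of the stamen features that peak at S10, against at most 1227 CPM in the other replicates. Replicate 2 of dorsal petals at S9 held 3849 CPM of members, against 697 CPM in replicate 1, and replicate 1 of ventral sepals at S10 held 2191 CPM, against 729 and 911 CPM. Whether RNA of another organ is present in these libraries was not tested. Choosing the members without the lateral petal library gave 199 of the same 200.

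**Figure D5:**
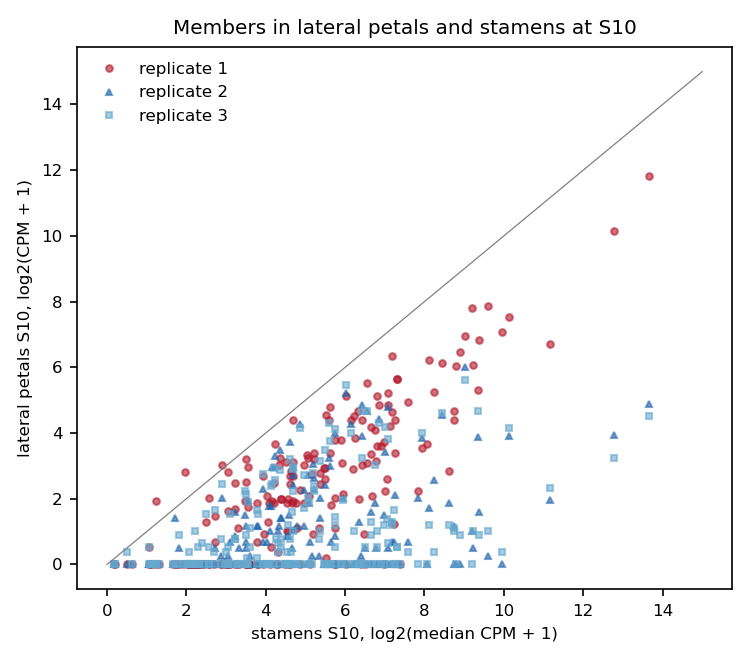
Level of each member in the 3 lateral petal libraries of S10 (vertical axis, log2(CPM + 1)) against its median in S10 stamens (horizontal axis, log2(median CPM + 1)), with the line of equal levels in grey. Points of replicate 1 climb with the stamen level, while those of replicates 2 and 3 stay low even for the members most abundant in stamens.

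The rule bounds all organs other than the stamen alike, so it does not order petals, sepals and carpels among themselves. Petals were set against sepals over S9 and S10 in an edgeR fit of the 35 floral libraries of both stages. In petals 12 members were called higher (6%, against 11% of the 22138 features tested) and 0 lower (against 9.82%). All 200 members passed the filter on low counts, which the stamen libraries in this fit can satisfy alone. With only the petal and sepal libraries in the fit 154 members were tested, of which 14 were called higher and 1 lower. Over all 21122 features tested there, 3345 were called higher and 2567 lower. The members' median log2 fold change, petals over sepals, was 0.72, beside 0.20 over all features. Without replicate 1 of lateral petals at S10, the library that stood apart above, the members' median was 0.20, beside 0.19 over all features. It was 1.11, beside 0.26, without replicate 1 of ventral sepals at S9, and 1.145, beside 0.54, without replicate 2 of lateral sepals at S9. Without that last library, lateral sepals at S9 were left with replicate 1 alone, in which 9877 features had a count. The rise of the median over all features shows that this fit moved far more than the members. Without replicate 2 of dorsal petals at S9 the members' median was 0.52, beside 0.19 over all features. With the replicate number as a block, 13 members were called higher and 1 lower.

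DN47422_c2_g5_i1|m.98539 had 3.75 and 1.49 CPM in dorsal petals at S9 and 2.30, 2.44 and 3.46 CPM in dorsal petals at S10. Its lateral petal libraries had 0.864 and 0.606 CPM at S9 and 0, 1.03 and 0 CPM at S10. In the 15 sepal libraries it ranged from 0 to 1.17 CPM with a median of 0, and the log2 fold change was 4.57 ± 0.95 (SE; edgeR adjusted p = 0.000899). Dorsal petals were above every sepal library, and lateral petals overlapped with them. The call was lost without replicate 2 of lateral petals at S10. DN45449_c1_g3_i1|m.68505, the member with the highest log2 fold change (4.88 ± 1.40 (SE), edgeR adjusted p = 0.016216), had 24.4 CPM in replicate 1 of lateral petals at S10. It had 0 to 1.49 CPM in the other 9 petal libraries and at most 0.260 CPM in sepals, and its call was lost without that replicate. It was also lost without replicate 2 of dorsal petals at S9, of dorsal petals at S10 or of lateral petals at S9.

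Carpels were set against petals in the same fit. In carpels 5 members were called higher (2.5%, against 1.59% of all features) and 0 lower (against 1.78%). The stamen libraries again let all 200 members pass the filter. With only the carpel and petal libraries in the fit 138 members were tested, of which 2 were called higher and 0 lower. Over all 19953 features tested there, 713 were called higher and 730 lower. Groups without a count limit the fitted changes here as in petals against sepals. In the main fit the median log2 fold change of the members, carpels over petals, was 0.32, beside -0.04 over all features. It was 0.0057, beside -0.13, without replicate 2 of carpels at S10 and 0.15, beside -0.09, without replicate 1 of carpels at S9. It was between 0.54 and 0.55 without replicate 2 of dorsal petals at S9, replicate 2 of lateral petals at S9 or replicate 1 of lateral petals at S10. DN45957_c0_g1_i1|m.75160 and DN46426_c0_g1_i1|m.83153 had the highest log2 fold changes and no count in any of the 10 petal libraries. DN46426_c0_g1_i1|m.83153 had 3.42 and 0.466 CPM in carpels at S9 and 0, 3.46 and 0 CPM at S10, at least 44.8-fold higher in carpels (edgeR adjusted p = 0.031679). DN45957_c0_g1_i1|m.75160 had 1.57 and 0.621 CPM in carpels at S9 and 0, 1.42 and 0 CPM at S10, at least 22.0-fold higher (edgeR adjusted p = 0.030028). Both had 2 carpel libraries without a count, so their groups overlapped at 0. Both calls were lost without any one of the 6 carpel and petal libraries of S9, without replicate 2 of carpels at S10 and with DESeq2. The call of DN46426_c0_g1_i1|m.83153 was also lost with only the compared groups, and that of DN45957_c0_g1_i1|m.75160 with the replicate block and without the libraries under 19000 features. Only 1 member was called higher when either carpel library of S9, either lateral petal library of S9 or replicate 1 of dorsal petals at S9 was left out, and 2 without replicate 2 of dorsal petals at S9.

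The member of these 5 that kept its call under all 22 alternative fits was DN46680_c0_g2_i1|m.87157, the third in abundance, with 5530 and 4169 CPM in S9 stamens. It had 55.5 and 74.4 CPM in carpels at S9 and 51.0, 40.9 and 93.0 CPM in carpels at S10. The petals had 38.8 and 47.7 CPM in the dorsal and 31.3 and 25.02 CPM in the lateral type at S9, and 10.7 to 16.2 CPM in both types at S10. At each stage all carpel libraries were above all petal libraries, and the log2 fold change was 1.55 ± 0.31 (SE; edgeR adjusted p = 0.003039).

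DN45520_c4_g1_i3|m.70312, the fourth member by S9 level, was also among these 5 and had a count in every carpel library. It had 40.0 and 27.2 CPM in carpels at S9 and 56.2, 52.1 and 30.3 CPM at S10. In petals it had 10.6 CPM in replicate 2 of dorsal petals at S9, 37.4 CPM in replicate 1 of lateral petals at S10 and at most 4.93 CPM elsewhere. The log2 fold change, carpels over petals, was 3.97 ± 0.98 (SE; edgeR adjusted p = 0.023273), and the single lateral petal library overlapped with the carpels. In the S9 stamens it had 4932 and 1659 CPM. Its call was lost without replicate 1 of dorsal petals at S9 and without either lateral petal or either carpel library of S9. The fifth was DN40553_c0_g1_i1|m.28331, with 3.13 and 2.49 CPM in carpels at S9 and 13.4, 1.89 and 0 CPM at S10, against 0 to 1.80 CPM in petals (log2 fold change 3.90 ± 0.96 (SE), edgeR adjusted p = 0.019375). Its groups overlapped, and its call was lost under 9 of 22 alternative fits, among them those without any one of the carpel and petal libraries of S9 or without replicate 1 of carpels at S10.

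The silencing libraries were not used by the rule and contained little of the members. They held 303 and 270 CPM of members in ans-lmi1 and 297 and 248 CPM in ans, within the range of the wild-type libraries of other organs. There were 73 members without a count in any of the 4 libraries, 63 with a count in all 4 and 8 that reached 10 CPM in at least 1. The filter on low counts left 42 members to test. In edgeR 0 of these were called higher or lower in ans-lmi1, against 0% of the 18757 features tested in either direction. At an unadjusted p under 0.05 there was 1 member and 1373 features in all. DESeq2 called 122 features and 0 members. The silenced gene could not be checked here, since the IDs carry no names.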

How the data were processed

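Per the labels' protocols, the RNAprep Pure Plant Kit (TIANGEN) was used on total RNA and the libraries were built by Fast RNA-seq Lib Prep Kit V2. TopHat2 and RSEM are named, without versions or roles, per the submitters' processing notes. The reference, its annotation, read filters and strandedness were not given in the sources used here, so overlapping transcripts of opposite strands may not be separated. The authors deposited estimated counts per feature, not normalized, of which 93.2% to 99.2% are whole numbers in a library. All 89 files list the same 32115 features.

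Groups were taken from sample titles. Members and comparisons were chosen with earlier results of these data known. CPM values use the column sums of the deposited counts. For tests the estimated counts were rounded and fitted with edgeR 4.0.16 (R 4.3.3) by robust quasi-likelihood F tests, after TMM scaling and filterByExpr, with one mean per group. The common biological coefficient of variation was 0.814 in the stamen fit of 11 libraries, 0.735 in the fit of 35 S9 and S10 libraries and 0.265 in the silencing fit of 4 libraries. Calls required an adjusted p under 0.05 (Benjamini-Hochberg over all features tested in the comparison). SEs are the absolute log2 fold change over the root of F. Contrasts of petals, sepals and carpels weight each group equally on the log scale, so groups at 0 weigh on the fitted fold change. Against a group without counts, the fold is given as a bound at 3 counts over the group. The counts of the other group are pooled for this, so the bound need not hold for each of its libraries.

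Named members are the 2 with the largest ratio, the 2 with the highest S9 level, those at the limit of the list, and per comparison the 2 with the highest and lowest log2 fold change among members called, each named where 5 or fewer were called. Planned lists of anther genes were not analysed here, since the IDs carry no names, and no sequence is shown. Features to which DESeq2 gave no adjusted p were not counted as lost calls. Each fit was run on simulated counts with known fold changes. Except for the silencing fit, these counts were drawn with less spread between libraries than the data had. They therefore do not show how those fits perform at the spread of the data. No replicate pair agreed within sampling noise (lowest chi-square per feature 6.11).

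Same-numbered replicates were checked for pairing by the correlation of their deviations from group means. For petals with sepals at S10 it was 0.258, 0.119 and 0.342, one value per number. Carpels with petals gave 0.0345 to 0.106 at S10 and 0.170 at S9, and stamen stages gave -0.0785 to 0.0924. Libraries of unlike number were not compared, so these values do not settle whether the numbers pair libraries. The main fits did not use the numbers, and a replicate block was an alternative.

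Alternatives were DESeq2 1.42.0, RLE scaling, no filter on low counts, a replicate block, other libraries in the fit, leaving out each library, leaving out libraries with fewer than 19000 features, and other settings of the rule.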

Additional observations from a re-analysis of the deposited data

Results flagged for a closer look

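Leaves and bracts, with 4 libraries each, were searched for a library far from the other 3, over the member sum and the named members with a count there. This held in 7 of 16 tests, all of single members. Chance flags about 1 in 20 such groups, but here most other libraries had no count, so a single low count is enough. In leaves, DN47408_c2_g1_i2|m.99426 had 0.183 CPM in replicate 4, DN43270_c0_g1_i1|m.41536 had 0.0837 CPM in replicate 3 and DN45449_c1_g3_i1|m.68505 had 0.0834 CPM in replicate 2. DN46291_c1_g1_i4|m.81075 had 1.08 CPM in replicate 2 of leaves, against at most 0.0915 CPM in the other 3. In bracts, DN47408_c2_g1_i2|m.99426 had 1.45 CPM in replicate 4, DN45212_c0_g1_i2|m.65159 had 0.108 CPM in replicate 2 and DN46426_c0_g1_i1|m.83153 had 0.199 CPM in replicate 2. No explanation of these values was tested.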

How the results depend on the processing

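Both S9 stamen libraries, on which the list rests, had few features detected, and S9 had 2 libraries a group. In the shallowest library 3 counts make 0.714 CPM, which limits what can be read of members near that level. Where leaving out a library left 1 in a group of S9, ans-lmi1 or ans, that library was assumed to vary like the other groups. No setting reversed a direction of the log2 fold change among the members named in the stamen, petal and carpel comparisons, and none was named for ans-lmi1 against ans.

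Of the alternative settings of the rule, requiring 8-fold let 251 features pass and requiring 2-fold 725, with all 200 members listed under both. Scaling by TMM, replicate means, CPM + 0.5 or omitting 1 library kept 176 to 199 of the 200 members, with 361 to 420 features passing. Summing counts over an assembly gene, chosen after the data were seen like the omission of the lateral petal library, let 342 genes pass. The rule could not be applied without the libraries under 19000 features, since no S9 stamen library remained, and petals could not be set against sepals, since no S9 sepal library remained.

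For S12 against S10 stamens, all calls numbered 350 and were 1381 with DESeq2, 652 with only the compared groups, 1250 with all wild-type libraries in one fit and 2964 without the libraries under 19000 features. That last fit gave 147 members lower and 1 higher. Leaving out 1 library gave 144 to 263 calls, with 61 to 79 members lower. RLE scaling and DESeq2 shifted the median of all features by -0.12 on the log2 scale, and RLE gave a member median of -5.91, relative to -5.80. For S16 against S12, all calls numbered 1578 and were 3568 with DESeq2, 3713 with all wild-type libraries and 7258 without the libraries under 19000 features. Only the compared groups gave 13 members lower and 1 higher. Omitting the libraries under 19000 features gave 39 of 197 members lower and 13 higher, beside 3810 lower and 3448 higher of all 20459 features. Leaving out 1 library gave 704 to 2218 calls, with 17 to 31 members lower and 2 to 10 higher.

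For petals against sepals, 2 members were lower with DESeq2 and with RLE scaling, and 1 with only the compared groups and with all wild-type libraries. DESeq2 called 19 members higher and shifted the median of all features by -0.10. Leaving out 1 library gave 3330 to 8508 calls, with 0 to 2 members lower and 7 to 39 higher. For carpels against petals, all calls numbered 744 and were 1443 with only the compared groups and 1349 without the libraries under 19000 features. DESeq2 called 1 member lower. Only the compared groups gave 2 members higher, omitting the libraries under 19000 features 11 and all wild-type libraries 8. Leaving out 1 library gave 356 to 710 calls and 1 to 7 members higher. For ans-lmi1 against ans there were 122 calls with DESeq2, 1 without a filter and 1 in a fit with the wild-type libraries. Leaving out 1 library gave 0 to 86 calls and no member in any of these fits.

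With a replicate block, 75 members were lower at S12, and at S16 27 were lower and 3 higher. Of all 20420 features, 180 were lower at S12, and at S16 680 were lower and 417 higher. The block gave 13 members higher and 1 lower in petals and 4 higher in carpels. Of all 22138 features, 2618 were higher and 2174 lower in petals, and 352 were higher in carpels. The causes of these shifts were not tested.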
